A study of Mus musculus with 28 samples.

Results

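The aryl hydrocarbon receptor (AhR) and its best known liver targets were followed across 5 diets in mouse liver. The members are the genes named on the array as Ahr, Ahrr, Arnt, Cyp1a1, Cyp1a2, Cyp1b1, Tiparp and Aldh3a1, chosen by name because quercetin and resveratrol, the compounds added to the diet, are AhR ligands in vitro. They are 8 of the 21849 genes tested, measured by 13 of 41174 probes.

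AhR is a cytosolic receptor that moves to the nucleus when a ligand binds it, pairs there with ARNT and switches on genes that carry a short recognition sequence, among them the cytochromes P450 of family 1. AHRR competes with AhR for ARNT, and TIPARP modifies AhR and shortens its activity, so both form feedback loops. In liver the pathway is known for the metabolism of planar aromatic compounds, and CYP1A2 is a constitutive enzyme of the hepatocytes around the central vein.

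The samples were livers of 28 male C57/6J mice aged 7 weeks at the start and 33 weeks at the end of 26 weeks of feeding, with 1 one-colour array per liver. Standard diet (SD) was fed to 5 mice and high fat diet (HFD) to 6 mice. The other groups also ate the high fat diet, with 0.4% quercetin (4 g per kg of diet, HQ, 5 mice), 0.4% resveratrol (4 g per kg, HR, 6 mice) or 0.2% of each (2 g of each per kg, HQR, 6 mice). Hence no group received a compound on standard diet, and the comparisons of HQ, HR and HQR with HFD share the same 6 HFD arrays, as those with SD share the same 5 SD arrays. The arrays came from 9 slides scanned on 4 days, each array had between 59.3% and 82.1% of its probes well above background, and no spot was saturated. Hepatocyte markers were well above background on every array for all 11 of the 12 listed that were tested. Levels are log2 signals minus the array's own 75th percentile, so that 0 is that percentile. The number of arrays per group limits the precision.

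The recognition sequence of the AhR and ARNT pair has the core GCGTG. It was searched on both strands in the 250 bases upstream of the start sites in a RefSeq promoter table (GRCm38.p6), which held 6 of the 8 genes. The core was present upstream of 5 of these (Arnt, Ahrr, Cyp1a1, Cyp1b1 and Tiparp) and absent from this window of Cyp1a2. Of all 32851 promoters in the table, 28.2% held it in the same window. A match is a description of the letters and not evidence of binding. The matches are shown because the core is the sequence that the AhR and ARNT pair is known to bind, with the core in capitals, read 5′ to 3′ on the strand that carries it, and with the distance from the start site to the core's upstream end on the gene's strand.
Cyp1a1, 54 bases upstream: agataaggagGCGTGgccaacagac
Cyp1b1, 76 bases upstream, opposite strand: agggggtgggGCGTGaggggcggga
Tiparp, 170 bases upstream, opposite strand: cctcccgtgcGCGTGctccggacgg
Ahrr, 107 bases upstream: ttgaaagggcGCGTGgcaggcaggg
Ahrr, 82 bases upstream: acaaggatgtGCGTGcgccctctgc
Ahrr, 27 bases upstream: ggggcggctcGCGTGctggggtggg
Arnt, 29 bases upstream: atagtttgggGCGTGtcttctgccc

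No member passed the test in any comparison. With limma over all genes, 0 of 8 members reached an adjusted p under 0.05 in HFD against SD, where 0.114% of all genes did. The same count was 0 of 8 against HFD in HQ, HR and HQR, beside 0%, 0.00915% and 0% of all genes, and 0 of 8 against SD in HQ, HR and HQR, beside 0.0366%, 0.0549% and 0.0503%. It was also 0 of 8 for the mean of the supplemented groups against HFD (0.00458% of all genes) and for the F-test across the 5 groups (0.105%). Over the 88 member differences of the 11 comparisons, 5 had an unadjusted p under 0.05, and all 5 belonged to Ahr. Those were HQ, HR and HQR against SD, where 3.91%, 5.72% and 6.43% of all genes had such a p, HR against HFD (4.92%), and the mean of the supplemented groups against HFD (3.42%). These 5 come from the main fit with 1 probe per gene, and the count depends on the processing. With the mean of all kept probes, Cyp1b1 in HQ against SD had an unadjusted p of 0.048 (limma). Without HQ replicate 1, Cyp1a1 in HQ against HFD had one of 0.0021 (limma). With array weights, Ahrr in HFD against SD had one of 0.025 and Tiparp in HQR against HR one of 0.010 (limma). Each member had an unadjusted p under 0.05 in some comparison under an alternative setting, and none passed after adjustment. In the main fit the unadjusted count was 0 of 8 in HFD against SD (6.14% of all genes) and HQ against HFD (2.13%). It was also 0 of 8 in HQR against HFD (1.36%), and 1 of 8, Ahr, in the F-test (3.96%). For every member the values of the groups compared overlapped. Among all genes, the groups did not overlap for 1.33% in HFD against SD, for 0.166%, 0.388% and 0.0923% in HQ, HR and HQR against HFD, for 0.559%, 0.6% and 0.803% in the same groups against SD, and for 0.00462% in all supplemented livers against HFD. The median difference of the 8 members was -0.15 in HFD against SD, with the median of all genes at -0.04. Against HFD it was -0.25 in HQ, -0.25 in HR and -0.12 in HQR, with 5 of 8 members lower each time and all-gene medians of -0.0046, 0.01 and 0.05. The 5 include Aldh3a1 each time, and it enters all these medians. It was mostly not well above background, and on no HQ array, so its direction is not established.

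**Figure D1:**
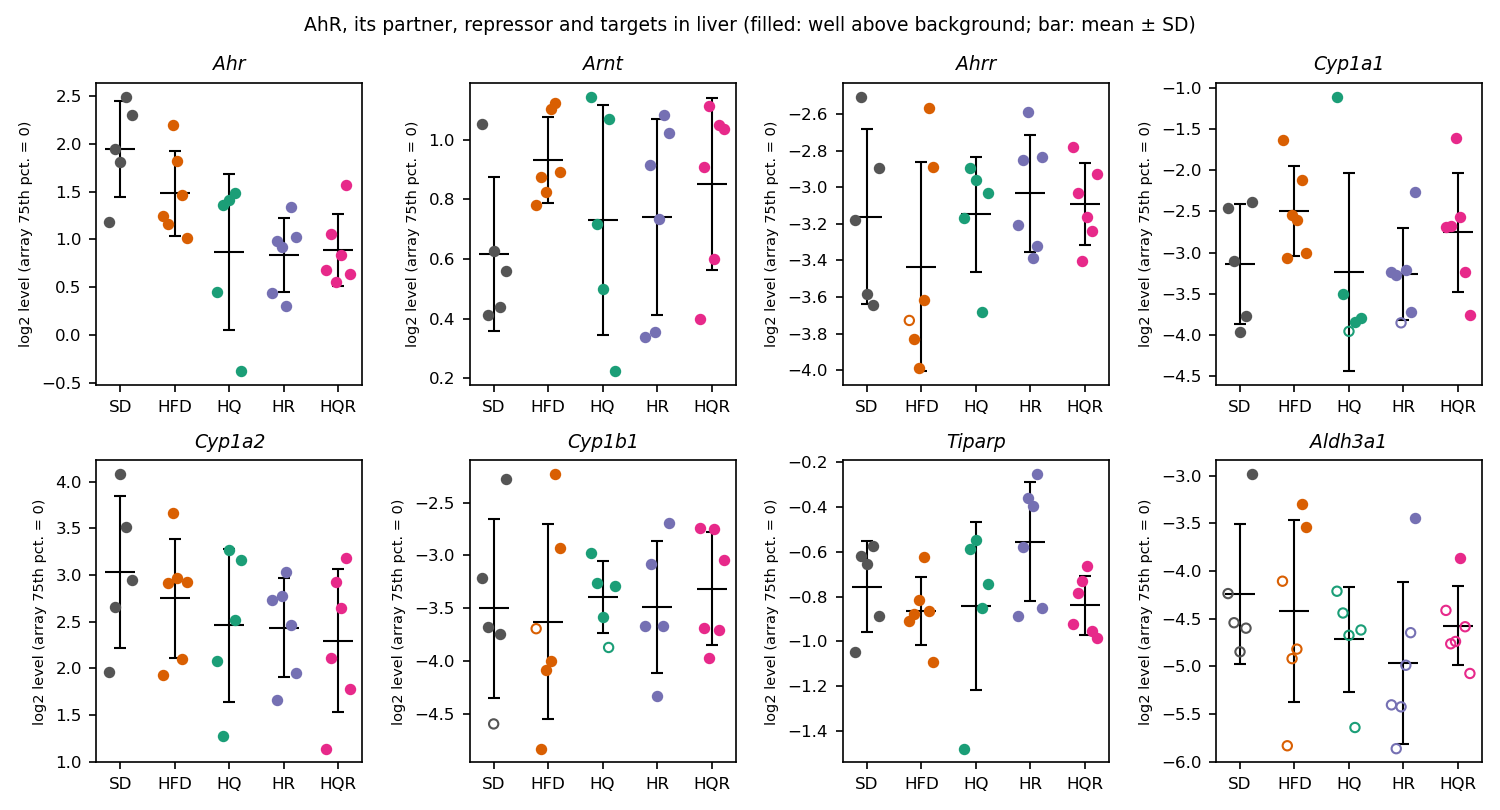
Log2 level of each of the 8 members in each liver, with the array's own 75th percentile at 0, by diet group, with mean ± SD. Filled points were well above background and open points were not. Ahr means lie at 1.95 in SD, 1.48 in HFD and between 0.84 and 0.89 in the supplemented groups, with overlapping points, and most Aldh3a1 points are open.

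Ahr, the receptor itself, had the widest difference between groups relative to its spread. Its probe lies at mm9 chr12:36182924-36182983 on the minus strand, is spotted 10 times on each array and was well above background in all 28 livers. The 7 to 10 usable spots of an array differed by an SD of 0.0256 to 0.151 on the log2 scale. The SD livers read 1.18, 1.94, 1.81, 2.49 and 2.30 in replicates 1 to 5, with a mean of 1.95 ± 0.51 (SD, n = 5). HFD livers ranged from 1.02 to 2.19 around a median of 1.35 (mean 1.48 ± 0.45, n = 6). HQ livers read 0.45, 1.36, 1.41, 1.49 and -0.38 in replicates 1 to 5 (mean 0.87 ± 0.82, n = 5). The first and the last of these were below every SD and HFD liver, and the other 3 lay within the HFD range. HR livers ranged from 0.31 to 1.34 around a median of 0.95 (mean 0.84 ± 0.39, n = 6), and HQR livers from 0.56 to 1.57 around 0.76 (mean 0.89 ± 0.38, n = 6). All HQ, HR and HQR livers were below the SD mean.

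The order of the Ahr means was SD, HFD, HQR, HQ and HR, and the last 3 lay between 0.89 and 0.84. Against SD, the difference was -1.11 ± 0.31 (SE) in HR, a mean 2.16 times lower on the linear scale, with an adjusted p of 0.296 by limma. It was -1.08 ± 0.32 in HQ (adjusted p = 0.623, limma) and -1.06 ± 0.31 in HQR (adjusted p = 0.284, limma). In size these differences exceeded those of 99.0%, 99.2% and 98.6% of all genes in HR, HQ and HQR, respectively. HFD lay between, at -0.46 ± 0.31 from SD (95% CI -1.09 to 0.16, adjusted p = 0.939, limma). Against HFD the difference was -0.65 ± 0.29 in HR (95% CI -1.25 to -0.05, adjusted p = 0.977, limma), and 6 of 6 HR livers were below the HFD mean. HQ differed from HFD by -0.61 ± 0.31 (95% CI -1.24 to 0.01), or by -0.30 without HQ replicate 5, and HQR by -0.59 ± 0.29 (95% CI -1.19 to 0.0062). The mean of the supplemented groups differed from HFD by -0.62 ± 0.24 (95% CI -1.11 to -0.12, adjusted p = 0.997, limma), and 15 of 17 livers were below the HFD mean. In the F-test across the 5 groups Ahr ranked 142 of 21849 genes, with an adjusted p of 0.555 by limma, and the other 7 members did not reach an unadjusted p under 0.05 there.

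Slides held livers of several groups, so the Ahr differences could be read within slides. HR was below SD on 3 of 3 shared slides, by -2.19 to -0.89, and below HFD on 4 of 4, by -1.89 to -0.18. HQR was below SD on 3 of 3 slides (-1.94 to -0.51) and below HFD on 3 of 4 (-1.64 to 0.08). HQ was below both on the 2 slides shared with each, by -0.73 and -0.32 for SD and by -0.79 and -2.20 for HFD. With slide as a block, Ahr differed from SD by -1.20 ± 0.39 in HQ, -1.18 ± 0.34 in HR and -1.07 ± 0.35 in HQR, with adjusted p-values of 0.446, 0.228 and 0.273 by limma. HFD was below SD on 3 of 4 slides, by up to -1.28, and level with it on slide 1, where the difference was 0.06.

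**Figure D2:**
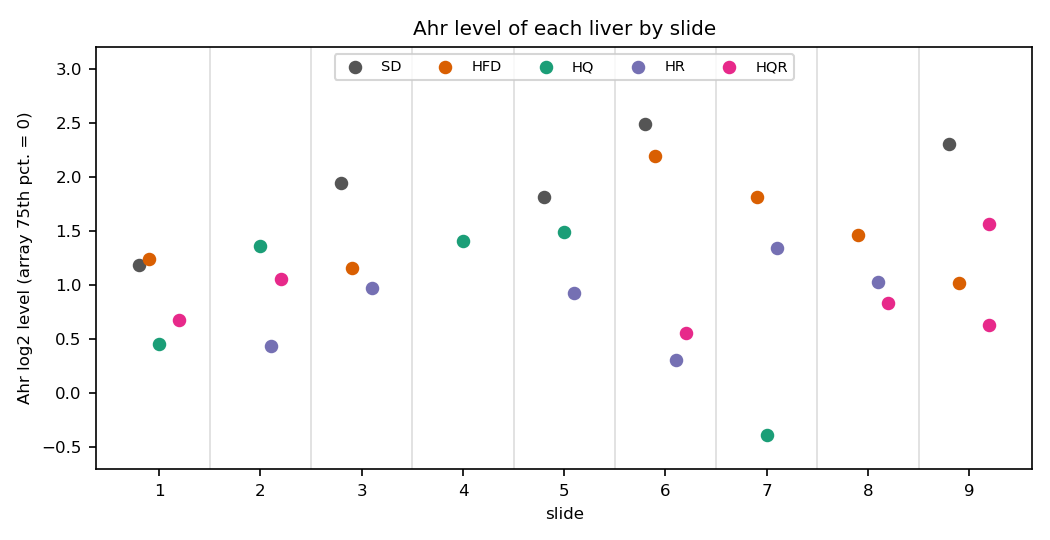
Ahr log2 level (array's own 75th percentile at 0) of each of the 28 livers, by slide, coloured by diet group. The SD liver is the highest or within 0.06 of the highest on each of the 5 slides that hold one, and HR livers lie below the SD and HFD livers of their slide.

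Markers of liver cell types were read in the same comparisons. Whole liver was measured, so fewer cells of a type and less RNA per cell cannot be told apart. All 12 pericentral hepatocyte markers read lower in HQ and in HR than in SD, and 11 of 12 in HQR. The medians of these differences were -0.39, -0.88 and -0.83, with 0 past the adjusted threshold by limma. At an unadjusted p under 0.05 (limma) there were 3, 8 and 6, beside 3.91%, 5.72% and 6.43% of all genes. General hepatocyte markers also read lower than in SD, 11 of 11 in HQ and 10 of 11 in each of HR and HQR. Their medians were -0.27, -0.38 and -0.33, and 0 passed the adjusted threshold (limma). At an unadjusted p under 0.05 (limma) there were 1, 3 and 4, beside the same 3.91%, 5.72% and 6.43% of all genes. In HFD against SD these markers were also lower, apart from Ttr, Apoa2 and Hnf4a, with a median of -0.30. Apoa1 and Trf had an unadjusted p under 0.05 there (limma), beside 6.14% of all genes, without passing after adjustment. The summed signal of 11 periportal hepatocyte markers ranged from 300.0 to 686 in SD, 275 to 486 in HFD, 234 to 421 in HQ, 264 to 395 in HR and 252 to 392 in HQR. The summed signal of the pericentral markers, in units of the array's 75th percentile, ranged from 337 to 506 in SD, 235 to 475 in HFD, 174 to 510 in HQ, 233 to 306 in HR and 213 to 353 in HQR, with 11 or 12 of the 12 well above background on each array. All 12 sinusoidal endothelial markers were higher in HR than in HFD (median 0.55, summed signal 63.1 to 98.4 against 27.6 to 74.5), as were all 11 Kupffer cell markers (median 0.50, summed signal 21.0 to 45.4 against 11.2 to 22.2). The endothelial sums were 38.9 to 82.8 in SD, 56.4 to 86.8 in HQ and 50.8 to 84.2 in HQR. The Kupffer cell sums were 18.2 to 45.9 in SD, 17.0 to 31.3 in HQ and 16.6 to 32.8 in HQR. In all of these groups the top of the range also lay above that of HFD. In HR against HFD none of these endothelial and Kupffer cell markers passed the adjusted threshold. An unadjusted p under 0.05 (limma) was found for 7 of 12 and 3 of 11, beside 4.92% of all genes. The markers that passed by limma were Cfd of the adipocyte list, which rose against SD in HFD, HQ, HR and HQR (by 5.45 in HFD), and Tff3 of the bile duct list, which was lower than in SD in HFD (-1.92), HR (-1.76) and HQR (-1.80). These marker lists' part in the Ahr and Cyp1a2 values was not tested.

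Arnt, the partner of AhR in the nucleus, differed little. Its brightest probe (mm9 chr3:95300932-95300991, plus strand) was well above background in all 28 livers. The SD livers read 1.05, 0.41, 0.63, 0.44 and 0.56 in replicates 1 to 5, with a mean of 0.62 ± 0.26. HFD livers ranged from 0.78 to 1.12 around 0.88 (mean 0.93 ± 0.15). Apart from replicate 1, every SD liver was below every HFD liver, and the difference of 0.32 ± 0.19 (95% CI -0.07 to 0.70) had an adjusted p of 0.897 by limma. HQ livers read 1.14, 0.72, 0.50, 1.07 and 0.22. HR ranged from 0.34 to 1.08 around 0.83, and HQR from 0.40 to 1.12 around 0.97. The supplemented groups spread over more than the HFD range, and their differences from HFD were -0.20 ± 0.19 in HQ, -0.19 ± 0.18 in HR and -0.08 ± 0.18 in HQR.

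Ahrr, the repressor, was dim but well above background in 27 of 28 livers (mm9 chr13:74348566-74348612, minus strand). The SD livers read -3.18, -2.51, -3.58, -3.64 and -2.89, and the HQ livers -3.17, -2.90, -2.96, -3.68 and -3.03. HFD livers ranged from -3.99 to -2.57 around -3.67, HR from -3.39 to -2.59 around -3.03, and HQR from -3.40 to -2.78 around -3.10. Of the HFD livers 4 lay at -3.61 or lower, where 1 SD and 1 HQ liver also lay, and the other 2 were among the upper values of the other groups. Against HFD the difference was 0.40 ± 0.23 in HR (95% CI -0.08 to 0.88), 0.34 ± 0.23 in HQR and 0.29 ± 0.24 in HQ, and 16 of the 17 supplemented livers lay above the HFD mean (mean of the 3 groups against HFD 0.35 ± 0.19, adjusted p = 0.997, limma). Within slides, HQ was above HFD on 2 of 2, HR on 3 of 4 and HQR on 2 of 4.

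Cyp1a1, the target most used as a readout of AhR activity, was near the lower end of the measured range. Its probe (mm9 chr9:57551535-57551594, plus strand) was well above background in 26 livers, all but 1 HQ and 1 HR liver. The SD livers read -2.46, -3.10, -3.96, -3.77 and -2.39, with a mean of -3.14 ± 0.73. HFD livers ranged from -3.06 to -1.63 around -2.58 (mean -2.50 ± 0.55). HQ livers read -1.11, -3.50, -3.96, -3.84 and -3.79. Replicate 1 of HQ was the highest Cyp1a1 value of all 28 livers, and the other 4 HQ livers were below every HFD liver. HR ranged from -3.85 to -2.26 around -3.25 (mean -3.26 ± 0.56), and HQR from -3.76 to -1.60 around -2.68 (mean -2.76 ± 0.72). HFD differed from SD by 0.64 ± 0.44 (95% CI -0.27 to 1.55). Against HFD the differences were -0.74 ± 0.44 in HQ (95% CI -1.66 to 0.17), -0.76 ± 0.42 in HR (95% CI -1.63 to 0.11) and -0.26 ± 0.42 in HQR (95% CI -1.13 to 0.61). Without HQ replicate 1 the HQ difference was -1.28 (unadjusted p = 0.0021, adjusted p = 0.528, limma), and with slide as a block it was -0.30 ± 0.41. With normexp background correction, which moved the median of all genes by 0.24 in this comparison, the HQ difference turned to 0.31. HR was below HFD on 4 of 4 shared slides, by -1.11 to -0.14.

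Cyp1a2, the constitutive liver member of the family, was well above background in all livers with both of its probes. Both probes lie on the minus strand of chr9 (mm9), and the second spans 650 bases of genome for its 60 bases and so crosses an intron. Over the 28 arrays these probes correlated with a Pearson r of 0.97 and a Spearman rho of 0.97. The SD livers read 1.96, 2.66, 4.08, 3.51 and 2.94 (mean 3.03 ± 0.81). HFD livers ranged from 1.93 to 3.67 around 2.92 (mean 2.75 ± 0.64). HQ livers read 2.08, 1.28, 3.26, 2.51 and 3.16, HR ranged from 1.66 to 3.04 around 2.60, and HQR from 1.14 to 3.18 around 2.37. The group ranges overlapped over most of their width. HFD differed from SD by -0.28 ± 0.41. Against HFD the differences were -0.29 ± 0.41 in HQ, -0.31 ± 0.39 in HR and -0.46 ± 0.39 in HQR, and against SD -0.57 ± 0.43, -0.60 ± 0.41 and -0.74 ± 0.41. The lowest adjusted p of these was 0.884, in HQR against SD (limma). HR was below SD on 3 of 3 slides (-1.31 to -0.48) and below HFD on 4 of 4 (-1.25 to -0.16), and HQR was below SD on 3 of 3 (-0.82 to -0.46). HQ was above HFD on the 2 slides they share, by 0.15 and 0.20, with 1 liver of each group per slide. With slide as a block over all arrays, Cyp1a2 in HQ differed from HFD by -0.50 ± 0.36.

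Cyp1b1, a member of the family found mostly outside hepatocytes, gave different pictures with its 2 probes. The brighter probe, matched to a cDNA (mm9 chr17:80100918-80100977), was well above background in 25 of 28 livers, and the other, matched to the RefSeq transcript (chr17:80106547-80106606), in 13. Both are on the minus strand. One HR array had no usable spot for the brighter probe, so that its fit used 27 arrays. Over those arrays the probes had a Pearson r of -0.26 and a Spearman rho of -0.33. The brighter probe ranged from -4.59 to -2.27 in SD, -4.83 to -2.23 in HFD, -3.87 to -2.98 in HQ, -4.33 to -2.70 in HR and -3.97 to -2.74 in HQR. Its differences from HFD were 0.23 ± 0.40 in HQ, 0.14 ± 0.40 in HR and 0.31 ± 0.38 in HQR. These depend on HFD replicate 5, the highest Cyp1b1 value, without which they were 0.51, 0.42 and 0.59. That liver was on slide 8, where the HR and HQR livers read -2.70 and -2.75 and no SD or HQ liver lay. The arrays of slide 8 had the highest shares of probes well above background (79.3% to 82.1%). Within slides, HQ was above HFD on 2 of 2, by 0.71 and 0.72. The RefSeq probe differed from HFD by 0.94 ± 0.41 in HQ (adjusted p = 1.00 over all probes, limma), with means of -3.48 ± 0.69 in HQ and -4.42 ± 0.53 in HFD. It differed by 0.32 ± 0.39 in HR and 0.05 ± 0.39 in HQR. The RefSeq probe was well above background in 4 of 5 HQ and 3 of 6 HFD livers, so its HFD mean rests partly on signals that were not. Its highest value of all livers, -2.46, was in HQ replicate 1.

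**Figure D3:**
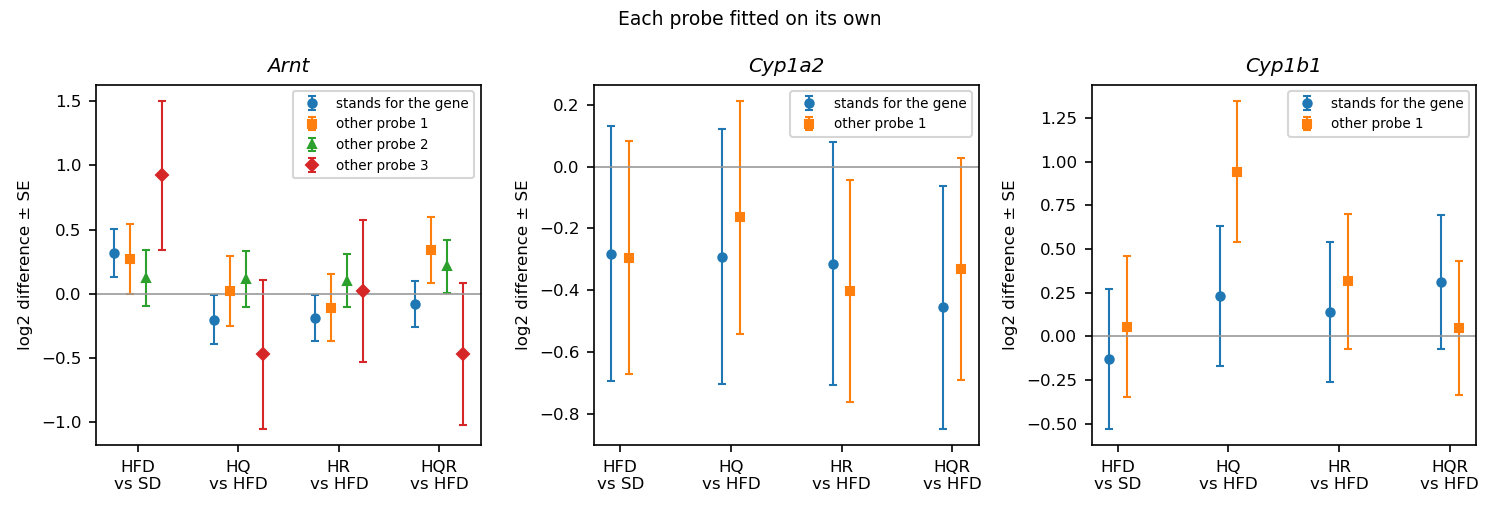
Log2 difference ± SE of every probe of Arnt (4 probes), Cyp1a2 (2 probes) and Cyp1b1 (2 probes), each fitted on its own, in HFD against SD and in HQ, HR and HQR against HFD. In HQ against HFD the Cyp1a2 probes lie at -0.29 and -0.16 and the Cyp1b1 probes at 0.23 and 0.94.

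The probes of Arnt also differed among themselves. All 4 were higher in HFD than in SD, by 0.12 to 0.92, with SEs of 0.19 to 0.58. In HQ against HFD they spread from -0.47 to 0.11 and in HQR from -0.47 to 0.34. The pairwise Pearson r over the 28 arrays ran from -0.34 to 0.52. No Arnt probe passed the adjusted threshold.

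Tiparp, whose product ADP-ribosylates AhR, varied least of the members, with an SD of 0.25 over all 28 livers (mm9 chr3:65358749-65358808, plus strand). The SD livers read -1.05, -0.62, -0.66, -0.57 and -0.89. HFD ranged from -1.09 to -0.62 around -0.87 (mean -0.86 ± 0.15). HQ livers read -1.48, -0.59, -0.55, -0.85 and -0.74, and replicate 1, which held the highest Cyp1a1, held the lowest Tiparp of all livers. HR ranged from -0.89 to -0.25 around -0.49 (mean -0.55 ± 0.27), and HQR from -0.98 to -0.66 around -0.85. Thus 4 of 6 HR livers were above every HFD liver. The difference of HR from HFD was 0.31 ± 0.15 (95% CI -0.0071 to 0.63, adjusted p = 1.00, limma), and it was positive on 4 of 4 shared slides (0.01 to 0.42). HQ and HQR each differed from HFD by 0.02, with SEs of 0.16 and 0.15.

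Aldh3a1, an aldehyde dehydrogenase that AhR ligands induce, was well above background in 5 livers (1 SD, 2 HFD, 0 HQ, 1 HR and 1 HQR). These 5 livers were all on slides 8 and 9, which held no HQ liver, so diet and slide cannot be told apart for HQ. The probe spans 731 bases at mm9 chr11:61029070-61029800 on the plus strand. Measured values ran from -5.86 to -2.98. In HQ only an upper bound of -4.02 can be given, from the dimmest probe well above background on each array, and the means of the other groups (-4.96 to -4.24) were below it, so no fold against HQ is given. The difference of the other groups from each other is not given, since most of their livers were not well above background either.

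**Figure D4:**
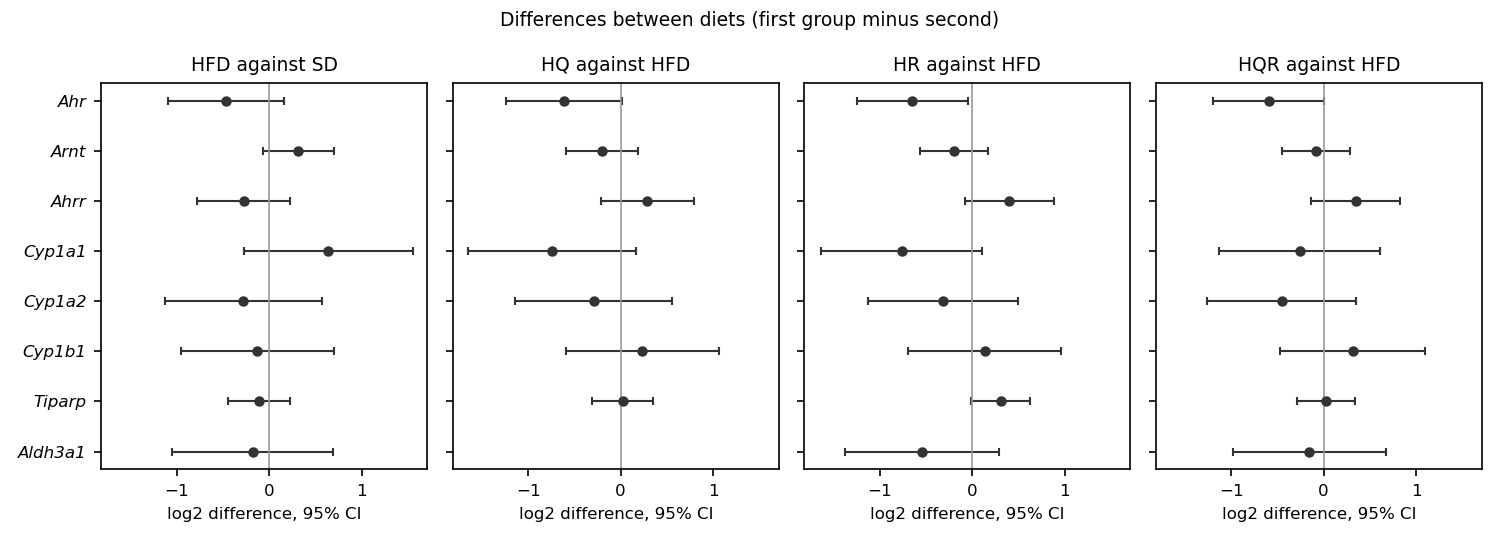
Log2 differences of the 8 members with 95% confidence intervals from limma, for HFD against SD and for HQ, HR and HQR against HFD (first group minus second). All intervals include 0 except Ahr in HR against HFD (-1.25 to -0.05), which did not pass after adjustment. Aldh3a1 has no point in HQ against HFD, and its other points come mostly from signals not well above background.

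Quercetin (a flavonol) and resveratrol (a stilbene) can be compared at the same dose of 0.4%. In HQ against HR, the Ahr difference was 0.03 ± 0.31 (95% CI -0.60 to 0.66), that of Cyp1a1 0.02 ± 0.44 (95% CI -0.89 to 0.93) and that of Cyp1a2 0.02 ± 0.41 (95% CI -0.83 to 0.87). These intervals leave room for differences of over 1.5-fold either way. Tiparp had the lowest rank of p among the members, with a difference of -0.29 ± 0.16 (95% CI -0.62 to 0.04, adjusted p = 1.00, limma). The Cyp1a1 value rests on HQ replicate 1, since without that liver the difference was -0.52. For the mixture, whose dose of each compound is 0.2%, the values beside the single compounds were 0.48 ± 0.44 against HQ and 0.50 ± 0.42 against HR for Cyp1a1, and 0.02 ± 0.31 and 0.05 ± 0.29 for Ahr. In these 3 comparisons 0 of 8 members passed (limma), as did 0% of all genes, and 0 members had an unadjusted p under 0.05, beside 1.29%, 1.43% and 2.77% of all genes. The groups overlapped for all 8 members, while 0.111%, 0.134% and 0.0877% of all genes showed no overlap.

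Other genes of the pathway gave no call either. Of 23 tested genes known to respond to AhR, 0 passed in HFD against SD or in HQ, HR or HQR against HFD (limma), and 4, 2, 4 and 2 had an unadjusted p under 0.05, beside 6.14%, 2.13%, 4.92% and 1.36% of all genes. In HFD against SD, 15 of 23 were higher (median 0.16). Against HFD, 17 of 23 were lower in HQ, 15 in HR and 16 in HQR, with medians of -0.32, -0.23 and -0.24. These comparisons use the same HFD arrays with opposite sign. The smallest p-values in HFD against SD belonged to the fatty acid transporter Cd36 (1.65 ± 0.54) and to the glutathione transferases Gsta2 (0.83 ± 0.30) and Gsta1 (0.79 ± 0.30). In HQ against HFD they belonged to Gsta2 (-0.71 ± 0.30), the glucuronosyltransferase Ugt1a6b (-0.33 ± 0.15) and Lpcat2 (0.41 ± 0.20). In HR these were Cyp2a5 (-0.92 ± 0.36), Htatip2 (0.57 ± 0.23) and Ugt1a6b (-0.31 ± 0.14), and in HQR Lpcat2 (0.45 ± 0.19), the hormone Fgf21 (-1.81 ± 0.79) and Cyp2a5 (-0.71 ± 0.36).

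The 15 tested genes of the AhR complex and its coregulators stayed closer to 0. Their medians were -0.09 in HFD against SD, and 0.09, 0.04 and -0.01 in HQ, HR and HQR against HFD, and 0 had an unadjusted p under 0.05 in these 4 comparisons (limma). The genes with the smallest p were the corepressor Nrip1 (0.68 ± 0.37), the estrogen receptor Esr1 (-0.32 ± 0.21) and the factor Sp1 (0.22 ± 0.18) in HFD against SD. Esr1 was also among the 3 smallest p-values in HQ (-0.27 ± 0.21), HR (-0.33 ± 0.20) and HQR (-0.23 ± 0.20) against HFD. Of the 12 enzymes of tryptophan breakdown, which make natural AhR ligands such as kynurenine, 0 passed (limma) and 2 had an unadjusted p under 0.05, both in HR against HFD, where 4.92% of all genes had one. These were the dioxygenase Ido2 (-0.62 ± 0.26) and Haao (-0.46 ± 0.21). Ido2 had the smallest p of the list in HFD against SD as well (0.54 ± 0.27).

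**Figure D5:**
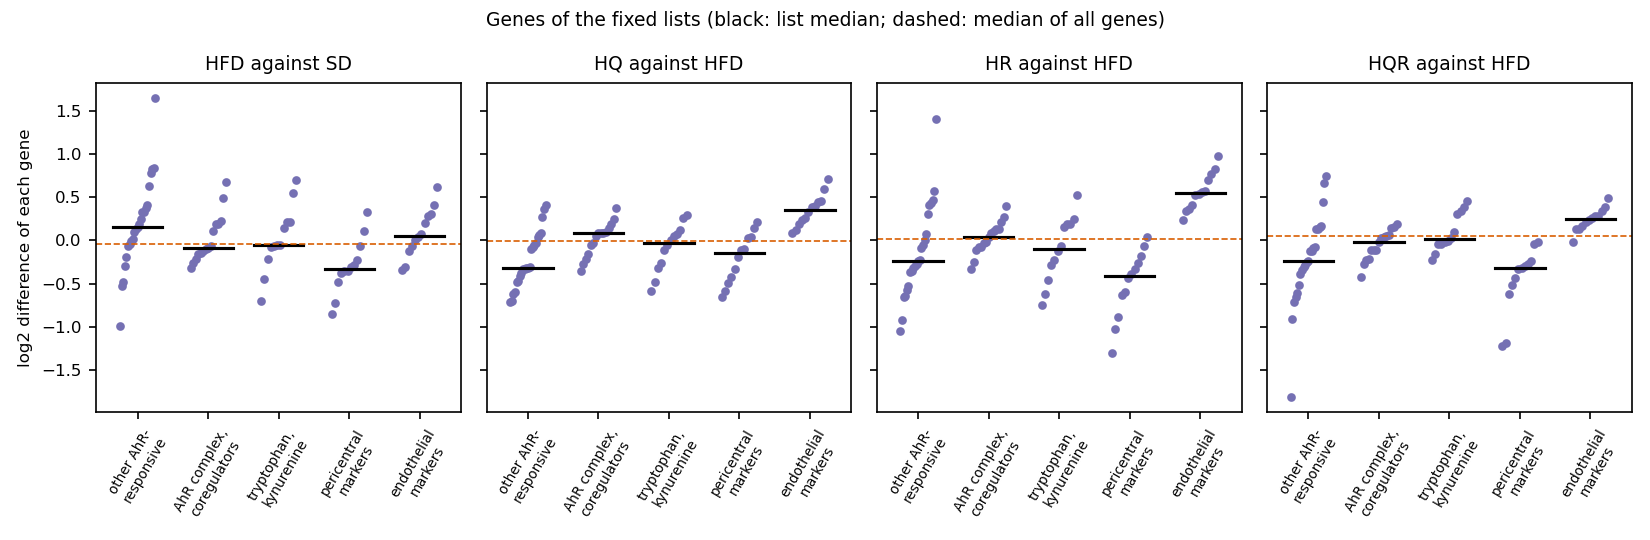
Log2 difference of each tested gene of 5 lists in HFD against SD and in HQ, HR and HQR against HFD, with the list median (black) and the median of all genes (dashed). Other AhR-responsive genes have a median of 0.16 in HFD against SD and of -0.32, -0.23 and -0.24 against HFD, and all endothelial markers are above 0 in HQ and HR against HFD.

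Among the members well above background in all livers (Ahr, Arnt, Cyp1a2 and Tiparp), the 6 pairwise correlations over 28 livers did not pass after adjustment over the 6 pairs. Ahr and Cyp1a2 had a Pearson r of 0.32 (permutation p = 0.094, adjusted p = 0.28) and a Spearman rho of 0.34 (permutation p = 0.081). Without the 2 livers farthest from the Ahr median, r was 0.40, and on deviations from the group means it was 0.12. Arnt and Tiparp had an r of -0.32 (permutation p = 0.093) and a rho of -0.27. Cyp1a2 and Tiparp had an r of 0.24, which became -0.35 after slide means were subtracted. The genes whose level followed Ahr most closely over the 28 arrays, out of 15130 well above background throughout, were Kalrn (r = 0.79), Tomm40l (0.77) and Prox1 (0.76), a hepatocyte transcription factor. After slide means were subtracted, their r with Ahr was 0.89, 0.74 and 0.75, ranks 1, 42 and 30. Those closest to Arnt were Haus6 (0.84), Qtrt2 (0.83) and Fkbp9 (0.82), with 0.86, 0.88 and 0.87 after slide means were subtracted. Cyp1a2 was followed by the unnamed transcript BP760463 (0.93), Mrpl54 (0.92) and Rps25 (0.92), with 0.90, 0.86 and 0.84 after that step. Tiparp was followed by Jak2 (0.68), Sh2d3c (0.67) and Adsl (0.67), for which r was 0.52, 0.60 and 0.41 after it, ranks 254, 65 and 1060. These r values share arrays, slides and scaling and are given as a description.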

How the data were processed

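Total RNA of each liver was labelled with Cy3 and hybridised to Agilent whole mouse genome arrays, per the labels. The processed signal intensity of each spot was deposited as extracted, background-corrected and detrended per the file headers. The authors also deposited a table of scores of unstated scale. Within an array these average 0 and follow the log signal, without centring of genes. They were multiplied by 3.21 to reach a log2 scale and served only as an alternative.

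Outlier spots were left out, log2 intensities averaged per probe, and the array's 75th percentile subtracted. Probes well above background on at least 5 arrays were kept (32073), named through RefSeq accessions and symbols (25097 matched by accession, 6333 by symbol, 1640 by synonym, 8104 kept the array's name), and the brightest stood for each of the 7083 genes with several. The 28 arrays were fitted together with limma 3.58.1 in R 4.3.3, two-sided, with Benjamini-Hochberg adjustment over 21849 genes. Each array is a separate mouse. Coordinates are mm9, from the array files.

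Members and gene lists were chosen with earlier results of these data known. Genes outside the members were named as the 3 smallest p-values of each pathway list per comparison, and as the 3 genes most correlated with a member. Replicate numbers were checked for pairing by the correlation of same-numbered deviations: HFD and SD passed (5 pairs, 0.217 to 0.698, each over 0.1), and the other 9 group pairs did not. The code was tested on simulated data.

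Alternatives were quantile or median scaling, normexp correction (offset 50), no or a stricter filter, the mean of all probes, the deposited scores, the compared arrays alone, an intensity trend, array weights, a block for slide, for scan day or for replicate number, leaving out slide 8 or each array, and, chosen after seeing the data, each probe fitted on its own. Correlations used 100000 permutations. Exon annotation was not used here, and 1 gene of a pathway list and 1 probe sequence are not reported here.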

Additional observations from a re-analysis of the deposited data

Results flagged for a closer look

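Cyp1a1 in HQ replicate 1 had a log2 level of -1.11, far from the other 4 HQ livers, of which the next highest was -3.50. The gap was 0.840 of the group's range, above the critical value of 0.710 for 5 samples. The array was on slide 1, and the same liver held the lowest Tiparp value. It also held the highest value of the brightest Arnt probe (1.14), another Arnt probe (-0.45) and the Cyp1b1 RefSeq probe (-2.46). Of the 40 member and group combinations examined, Cyp1a1 in HQ was the 1 set apart, and about 1 in 20 would be by chance.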

How the results depend on the processing

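The count of members past the threshold was 0 in all 11 comparisons and the F-test under each of the 45 alternative settings (those run for the comparison), and the count of correlated pairs was 0 under each of its alternatives. The lowest adjusted p under any of them was 0.0919 (Ahr, HR against SD, without SD replicate 1). All 190 alternative values of Ahr in HFD, HQ, HR and HQR against SD and in HQ, HR and HQR against HFD kept a negative sign. They ranged from -0.66 to -0.33 for HFD, -1.27 to -0.77 for HQ, -1.30 to -0.97 for HR and -1.25 to -0.92 for HQR against SD, and from -0.78 to -0.30 for HQ, -0.77 to -0.50 for HR and -0.73 to -0.45 for HQR against HFD. With the replicate block, Ahr in HFD against SD was -0.43, and the block changed no call.

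Of 2292 alternative values of the member differences, leaving out Aldh3a1 with HQ, 195 changed sign, 0 of these with an unadjusted p under 0.05, and 19 of the 195 moved by over 1 standard error; none of the 19 differences had been called. Normexp correction moved the median of all genes by over 0.1 (to 0.24 in HQ against HFD, 0.16 in HR against HFD and 0.19 in HQ against SD). With it, Cyp1a1 was at 0.31, 0.41 and -0.31 (HQ against HFD, HQ against SD, HQR against HQ) and 0.10 (supplemented mean against HFD), Ahrr at 0.14 in HQ against HR and -0.40 in HQR against HQ, and Cyp1b1 at -0.45 in the latter. With slide as a block, HQR against HQ gave Cyp1a1 -0.023 and Cyp1b1 -0.42, and Cyp1b1 was at -0.34 and -0.29 in HQR against HR and SD. The deposited scores gave Cyp1b1 -1.23 in HQ and -1.17 in HQR against HR, and the mean of all probes -0.41 in HQR against HQ. Aldh3a1, mostly not well above background and so without a usable size, turned to 0.32 in HR against HFD and to -0.22 in HQR against HR with normexp, and to -0.16 in the latter with slide as a block. Leaving out 1 liver at a time moved Cyp1a1 in HQ against HR between -0.52 and 0.22, and Ahr in HQR against HQ between -0.29 and 0.18. The cause of these shifts was not tested.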
